A study of Mus musculus with 12 samples.

Results

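Pparg and 9 genes of lipid uptake and storage were followed across mouse glomeruli, the filtering units of the kidney, in 2 inbred strains with and without an antibody-mediated nephritis. The 10 genes were Pparg, Rxra, Fabp3, Fabp4, Fabp5, Plin2, Cd36, Lpl, Angptl4 and Scd1, out of 18193 genes named on the array. Each was read from the probe set that carries its symbol alone and had the highest mean over all arrays. All 10 passed the filter on low values, which 11920 genes passed, although Pparg did so narrowly. The 4 groups held 3 female mice each, aged 8 to 10 weeks, namely 129S2SvPAs anti-GBM GN, 129S2SvPAs control, C57BL6J anti-GBM GN and C57BL6J control. The strain is spelled 129S2SvPAS in the labels of its controls. In anti-GBM GN, serum against the glomerular basement membrane was injected on days 0, 1 and 2, and glomeruli were sieved through nylon of 100 and 45 µm on day 4. No transgene or deletion is labelled for any group, and what the control mice received is not given in the sources used here.

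PPARγ, the product of Pparg, is a nuclear receptor that binds DNA as a heterodimer with an RXR partner such as RXRα, the product of Rxra. Its known targets, defined mainly in adipocytes and macrophages, include carriers that bind fatty acids in the cytoplasm (Fabp4), coats of lipid droplets (Plin2), a surface receptor for fatty acids and oxidised lipoproteins (Cd36), the lipase that frees fatty acids from circulating triglyceride (Lpl) and its inhibitor (Angptl4). In capillaries, Fabp4 and Cd36 are also expressed by endothelium, so in a sieved glomerulus these transcripts can come from several cell types.

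Sequence upstream of the start was at hand for 5 of the 10 genes, as RefSeq windows of GRCm38.p6 from 250 bases before to 50 after the start, with 3 windows for Pparg, 2 for Rxra and 1 each for Plin2, Fabp3 and Cd36. A receptor of this kind recognises 2 copies of AGGTCA set 1 base apart, a motif of 13 bases whose middle base is free. The upstream stretch of Plin2 is shown because Plin2 was the gene of the 10 whose response differed between the strains. It lies at chr4:86670230-86670309 on the minus strand, and capitals mark 13 bases that match the motif on the opposite strand with 2 mismatches, starting 225 bases before the annotated start. The same search gave 1 match each in Cd36 (chromosome 5, opposite strand, 63 bases before the start) and in one window of Rxra (chromosome 2, the strand of the gene, 75 bases before the start), each with 2 mismatches and shown as the matched bases only.
Plin2: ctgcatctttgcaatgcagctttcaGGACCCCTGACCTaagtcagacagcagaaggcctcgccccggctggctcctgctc
Cd36: TGGCCTCTGACTT
Rxra: TGGTCATAGGCCA

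Of all 32851 windows of this length, 3.86% held this motif with up to 2 mismatches outside the free base on either strand, and 0.0396% held it exactly. A single copy of AGGTCA was found in 16.3% of windows. It lies once in the window of Plin2, inside the match printed above, once in that of Cd36, once each in 2 of the 3 windows of Pparg, and at 2 places in the same window of Rxra. TGACNNNGC, the core that NRF2 and related factors recognise, occurred in 12.4% of all windows and among these genes in 1 window of Pparg. These matches describe letters and carry no information on binding in glomeruli.

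Glomerular and tubule markers were both detected. Of 10 listed podocyte markers 8 were named on the array, and all 8 passed the filter on low values. Their mean log2 signal was 6.69 to 7.05 in 129S2SvPAs anti-GBM GN against 6.73 to 7.62 in 129S2SvPAs control, and 7.76 to 8.80 in C57BL6J anti-GBM GN against 8.41 to 9.09 in C57BL6J control. Proximal tubule markers (13 genes) averaged 11.21 to 11.44 in 129S2SvPAs anti-GBM GN against 12.12 to 12.30 in its controls, and 11.34 to 11.79 in C57BL6J anti-GBM GN against 11.73 to 12.08 in its controls. Tubule RNA was measured with that of glomeruli in all groups. One array, 129S2SvPAs anti-GBM GN replicate 1, was less like its group than the others, with Pearson's r across genes of 0.974 and 0.973 to the other arrays of its group, which had 0.994 between them. Probe set signals are log2 values normalized by the authors. Differences are on that scale, each with its standard error (SE) from the limma fit. A gene was called at a Benjamini-Hochberg adjusted p under 0.05 over all 11920 genes. By this rule 2 of the 8 podocyte markers were higher and 2 lower in 129S2SvPAs anti-GBM GN, against 10.6% and 9.77% of all genes. None were called in C57BL6J, where 4.78% of all genes were higher and 2.31% lower. At an unadjusted p under 0.05 in limma, 3 podocyte markers were lower in C57BL6J. The number of arrays limits the precision.

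**Figure D1:**
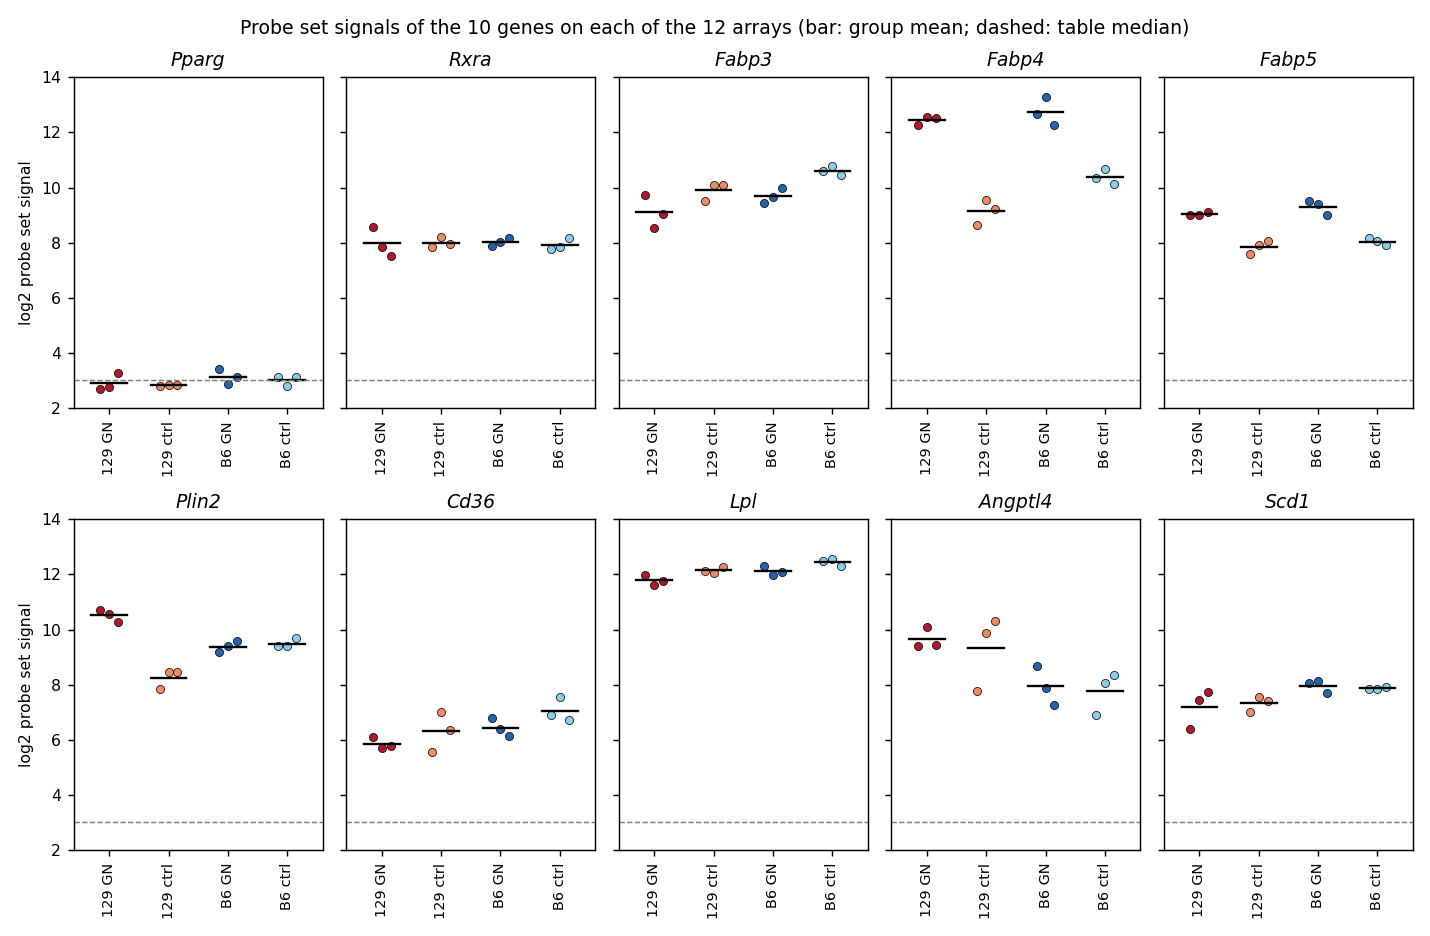
Log2 probe set signal (y axis) of the 10 genes on each array, by group (x axis, in the order 129S2SvPAs anti-GBM GN, 129S2SvPAs control, C57BL6J anti-GBM GN and C57BL6J control), with points for mice, bars for group means and a dashed line at 3.03, the median of all values in the table. Pparg lies at the dashed line in every group, Fabp4 and Fabp5 are higher in anti-GBM GN of both strains, and Plin2 is lowest in 129S2SvPAs controls and highest in 129S2SvPAs anti-GBM GN.

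Pparg transcripts were at the floor of the array in all 4 groups. The signals were 2.72, 2.79 and 3.27 in 129S2SvPAs anti-GBM GN and 2.82, 2.83 and 2.84 in 129S2SvPAs control. They were 3.41, 2.87 and 3.12 in C57BL6J anti-GBM GN and 3.13, 2.81 and 3.12 in C57BL6J control. The groups overlap within each strain, and 5 of the 12 arrays exceeded 3.03, the median of all values in the table. The response was 0.10 in 129S2SvPAs (95% interval -0.29 to 0.48) and 0.11 in C57BL6J (-0.27 to 0.50), with adjusted p of 0.778 and 0.797 in limma. Near the floor a log2 difference is understated, so a change of Pparg was not detectable at this signal, which does not show that there was none.

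Rxra, the heterodimer partner, was well above the floor, and no comparison called its brightest probe set. Its signals ran from 7.53 to 8.58 in 129S2SvPAs anti-GBM GN, 7.85 to 8.22 in 129S2SvPAs control, 7.87 to 8.17 in C57BL6J anti-GBM GN and 7.76 to 8.18 in C57BL6J control. All 4 ranges overlap. The response was -0.03 (95% interval -0.55 to 0.50) in 129S2SvPAs and 0.09 (-0.43 to 0.62) in C57BL6J. The response in 129S2SvPAs was -0.325 (adjusted p = 0.216 in limma) without replicate 1 of its challenged mice. A dimmer Rxra probe set disagreed. Its signals lay near the floor, at 3.18, 2.95 and 2.97 in 129S2SvPAs anti-GBM GN against 3.42, 3.38 and 3.49 in 129S2SvPAs control. Its response was -0.40 in 129S2SvPAs with adjusted p = 0.0239 in a limma fit of all probe sets singly. In that fit it was also called between strains in controls, at 0.56 (129S2SvPAs minus C57BL6J, adjusted p = 0.00884), and on the average of both strains, at -0.235 (adjusted p = 0.0413).

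Among the fatty acid carriers, Fabp4 had the largest response of the 10 genes, and it rose in both strains. Fabp4 encodes the carrier of adipocytes, macrophages and capillary endothelium. Its signals were 12.26, 12.56 and 12.51 in 129S2SvPAs anti-GBM GN against 8.66, 9.54 and 9.23 in 129S2SvPAs control. In C57BL6J they were 12.67, 13.29 and 12.26 in anti-GBM GN against 10.36, 10.69 and 10.14 in controls. The groups did not overlap in either strain. The rise was 3.30 in 129S2SvPAs (SE 0.28, 9.85-fold, adjusted p = 3.62e-05 in limma) and 2.34 in C57BL6J (SE 0.28, 5.08-fold, adjusted p = 0.000621).

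The anti-GBM GN groups had the highest Fabp4 levels, 12.44 ± 0.16 in 129S2SvPAs and 12.74 ± 0.52 in C57BL6J (SD, n = 3 each), and their arrays overlap. The controls were at 9.14 ± 0.45 in 129S2SvPAs, the lowest, and 10.40 ± 0.28 in C57BL6J, without overlap. The strain difference (129S2SvPAs minus C57BL6J) was -0.30 in anti-GBM GN (95% interval -0.91 to 0.32, adjusted p = 0.58) and -1.25 in controls (SE 0.28, adjusted p = 0.0196). This last call was lost without 129S2SvPAs control replicate 1 (-1.01, adjusted p = 0.0691) or C57BL6J control replicate 2 (-1.11, adjusted p = 0.087). The difference of the 2 responses was 0.96 with an interval of 0.09 to 1.83 before adjustment, and it did not pass over all genes (adjusted p = 0.411). A second Fabp4 probe set gave rises of 3.10 and 2.11 in 129S2SvPAs and C57BL6J, both called.

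Fabp5, the epidermal-type carrier that is also found in endothelium and macrophages, rose in both strains. The signals were 9.00, 9.01 and 9.11 in 129S2SvPAs anti-GBM GN against 7.60, 7.92 and 8.08 in its controls, and 9.50, 9.42 and 9.02 in C57BL6J anti-GBM GN against 8.16, 8.05 and 7.93 in its controls. The challenged arrays lay above the control arrays in each strain. The rise was 1.17 in 129S2SvPAs (SE 0.16, adjusted p = 0.000482) and 1.27 in C57BL6J (SE 0.16, adjusted p = 0.000735). The responses differed by -0.09 (95% interval -0.58 to 0.39), and the second probe set of Fabp5 gave 1.25 in 129S2SvPAs and 1.22 in C57BL6J, both called.

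Fabp3, the heart-type carrier, moved the other way from Fabp4 and Fabp5. Its signals were 9.72, 8.53 and 9.06 in 129S2SvPAs anti-GBM GN against 9.53, 10.10 and 10.08 in its controls, and 9.43, 9.66 and 9.97 in C57BL6J anti-GBM GN against 10.60, 10.79 and 10.46 in its controls. The arrays overlap in 129S2SvPAs through replicate 1 of the challenged mice, and do not overlap in C57BL6J. Averaged over the strains Fabp3 fell by 0.865 (SE 0.20, adjusted p = 0.00799). Neither strain alone was called in the main analysis, with -0.80 in 129S2SvPAs (adjusted p = 0.0653) and -0.93 in C57BL6J (adjusted p = 0.0731). Without 129S2SvPAs anti-GBM GN replicate 1 these were -1.11 (adjusted p = 0.00804) and -0.93 (adjusted p = 0.022). Fabp3 in 129S2SvPAs was also called without 129S2SvPAs control replicate 1 (-0.99, adjusted p = 0.0498), and in C57BL6J without 129S2SvPAs anti-GBM GN replicate 2 (-0.93, adjusted p = 0.0388). The strain difference in anti-GBM GN, -0.58 (adjusted p = 0.254) in the main analysis, was -0.89 (adjusted p = 0.0414) without 129S2SvPAs anti-GBM GN replicate 1. With array weights this strain difference was -0.91 (adjusted p = 0.0125 in limma). A second Fabp3 probe set stayed between 3.20 and 3.47 on all arrays, near the floor.

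**Figure D2:**
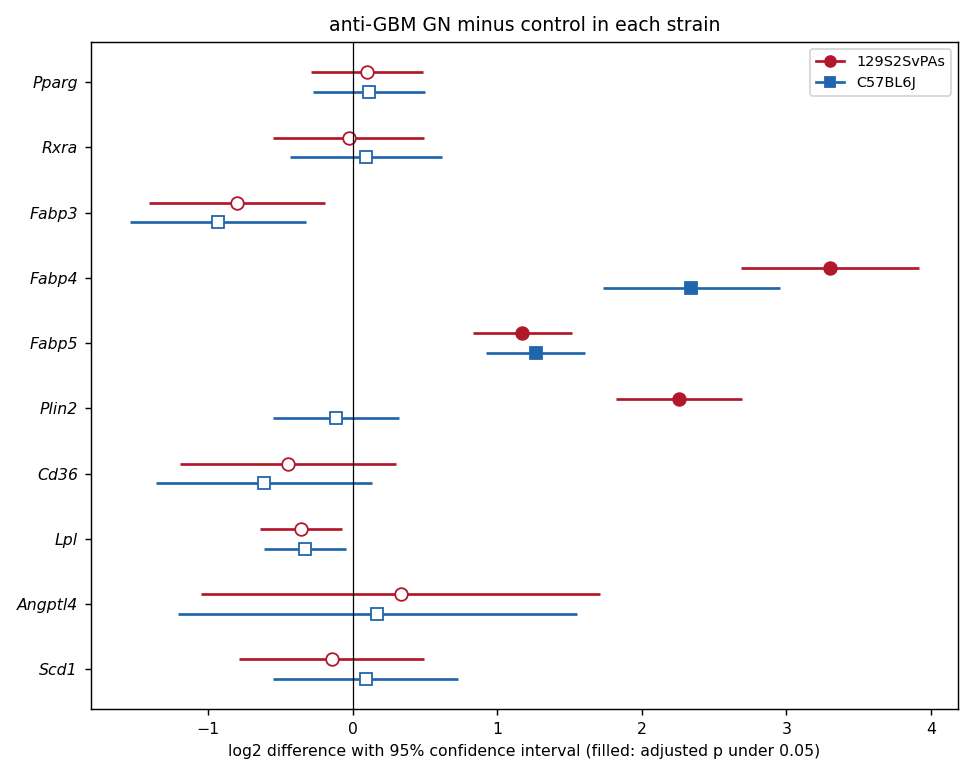
Log2 difference, anti-GBM GN minus control (x axis), of each gene in 129S2SvPAs (red circles) and C57BL6J (blue squares) with 95% confidence intervals, filled where the adjusted p is under 0.05. Fabp4 and Fabp5 are filled in both strains, and Plin2 stands at 2.26 in 129S2SvPAs and -0.11 in C57BL6J.

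Plin2 rose in 129S2SvPAs glomeruli and was not called in C57BL6J, and the difference of the 2 responses itself passed the test. Plin2 encodes perilipin 2, which coats lipid droplets in most non-adipose cells. The signals were 10.72, 10.57 and 10.27 in 129S2SvPAs anti-GBM GN and 7.83, 8.47 and 8.48 in its controls. In C57BL6J they were 9.17, 9.39 and 9.58 in anti-GBM GN and 9.40, 9.39 and 9.69 in controls. The 129S2SvPAs groups lie on either side of the C57BL6J arrays, which overlap each other. Plin2 rose by 2.26 in 129S2SvPAs (SE 0.20, 4.79-fold, adjusted p = 4.22e-05) and had a value of -0.11 in C57BL6J (95% interval -0.55 to 0.32, adjusted p = 0.826).

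The strain difference of Plin2 had opposite signs in nephritic and control mice. In anti-GBM GN it was 1.14 (SE 0.20, adjusted p = 0.00504), with means of 10.52 ± 0.23 in 129S2SvPAs and 9.38 ± 0.21 in C57BL6J (SD, n = 3 each). In controls it was -1.23 (SE 0.20, adjusted p = 0.00319), with means of 8.26 ± 0.37 in 129S2SvPAs and 9.49 ± 0.17 in C57BL6J. The difference of responses, 2.37 (SE 0.28, 95% interval 1.76 to 2.99, adjusted p = 0.00586), is the sum of these sizes and uses the same arrays. Plin2 was the only one of the 10 genes called in that contrast, where 0.268% of all genes were called higher and 0.294% lower. Every alternative run kept this call. Plin2 has 1 probe set of its own here, so no second probe set checks it. Of the 9 macrophage markers tested, 1 was called for the difference of responses, Cd14, at 2.34 (adjusted p = 0.0193 in limma), while 6 of the 9 had negative values and the median of the list was -0.13. Lyz2 and Csf1r were at -2.14 (adjusted p = 0.577) and -1.24 (adjusted p = 0.365). Cd14 differed from Plin2 in that it also rose in C57BL6J, by 1.82 (adjusted p = 0.00111), and was not called between strains in controls, at -0.13 (adjusted p = 0.809). For the difference of responses the median was 0.64 for the 11 endothelial markers (10 positive) and 0.56 for the 8 podocyte markers (6 positive). It was 0.30 for the 7 mesangial markers (5 positive) and -0.47 for the 13 proximal tubule markers (2 positive). None of these lists had a called gene, and their part in the Plin2 result was not tested.

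Of the uptake genes, Lpl fell slightly on the average of both strains, and Cd36 was not called with all arrays. Lpl, the lipase held on the capillary wall, gave 11.96, 11.63 and 11.76 in 129S2SvPAs anti-GBM GN against 12.13, 12.05 and 12.25 in its controls, and 12.29, 11.97 and 12.07 in C57BL6J anti-GBM GN against 12.47, 12.55 and 12.30 in its controls. The challenged arrays lay below the control arrays in each strain, without overlap. Averaged over strains Lpl fell by 0.345 (SE 0.09, 0.787-fold, adjusted p = 0.017), which became -0.25 (adjusted p = 0.0624) with quantile normalization. The strains alone gave -0.36 and -0.33 in 129S2SvPAs and C57BL6J, with adjusted p of 0.0731 and 0.165, and without 129S2SvPAs anti-GBM GN replicate 1 the value in 129S2SvPAs was -0.45 (adjusted p = 0.0338). A second Lpl probe set had an average of -0.58 (adjusted p = 0.0138). The mean of the Lpl probe sets was called in 129S2SvPAs (-0.45, adjusted p = 0.0249 in limma) and C57BL6J (-0.48, adjusted p = 0.0377). Array weights called Lpl in 129S2SvPAs (-0.44, adjusted p = 0.0139) and between strains in anti-GBM GN (-0.42, adjusted p = 0.0217).

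Cd36 signals spanned 5.70 to 6.11 in 129S2SvPAs anti-GBM GN and 5.57 to 7.01 in its controls, and 6.16 to 6.79 in C57BL6J anti-GBM GN and 6.72 to 7.56 in its controls. Challenged and control arrays overlap in both strains. The average response was -0.53 (SE 0.24) with adjusted p = 0.129, and it was -0.72 (adjusted p = 0.0262) without 129S2SvPAs control replicate 1.

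Angptl4, a secreted inhibitor of lipoprotein lipase, varied more within groups than between treatments. The signals were 9.42, 10.09 and 9.44 in 129S2SvPAs anti-GBM GN and 7.77, 9.87 and 10.31 in its controls, and 8.69, 7.89 and 7.27 in C57BL6J anti-GBM GN and 6.91, 8.06 and 8.37 in its controls. Challenged and control arrays overlap in each strain. The responses were 0.33 (95% interval -1.05 to 1.71) in 129S2SvPAs and 0.17 (-1.21 to 1.55) in C57BL6J. Between strains Angptl4 was at 1.70 in anti-GBM GN (95% interval 0.32 to 3.08, adjusted p = 0.138), where the arrays do not overlap, and at 1.54 in controls (0.16 to 2.92, adjusted p = 0.174). Neither was called in the main analysis. Array weights called the difference in anti-GBM GN, at 1.83 (adjusted p = 0.0341 in limma). Without 129S2SvPAs control replicate 1, the lowest of its group, the differences were 1.70 in anti-GBM GN (adjusted p = 0.0402) and 2.31 in controls (adjusted p = 0.0205).

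Scd1, the stearoyl-CoA desaturase that makes monounsaturated fatty acids for storage, ran from 6.40 to 7.72 in 129S2SvPAs anti-GBM GN and 7.03 to 7.57 in its controls. In C57BL6J it ran from 7.69 to 8.13 in anti-GBM GN and 7.85 to 7.92 in controls. Treatments overlap in both strains. The responses were -0.14 (95% interval -0.78 to 0.50) in 129S2SvPAs and 0.09 (-0.55 to 0.73) in C57BL6J, and the strain difference was -0.78 in anti-GBM GN (adjusted p = 0.143) and -0.54 in controls (adjusted p = 0.31). The lowest array of 129S2SvPAs anti-GBM GN was replicate 1, and when it was left out the response in 129S2SvPAs was 0.25 (adjusted p = 0.376) and the strain difference in anti-GBM GN was -0.38 (adjusted p = 0.241). That strain difference was called with array weights in limma, at -0.57 (adjusted p = 0.0449).

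**Figure D3:**
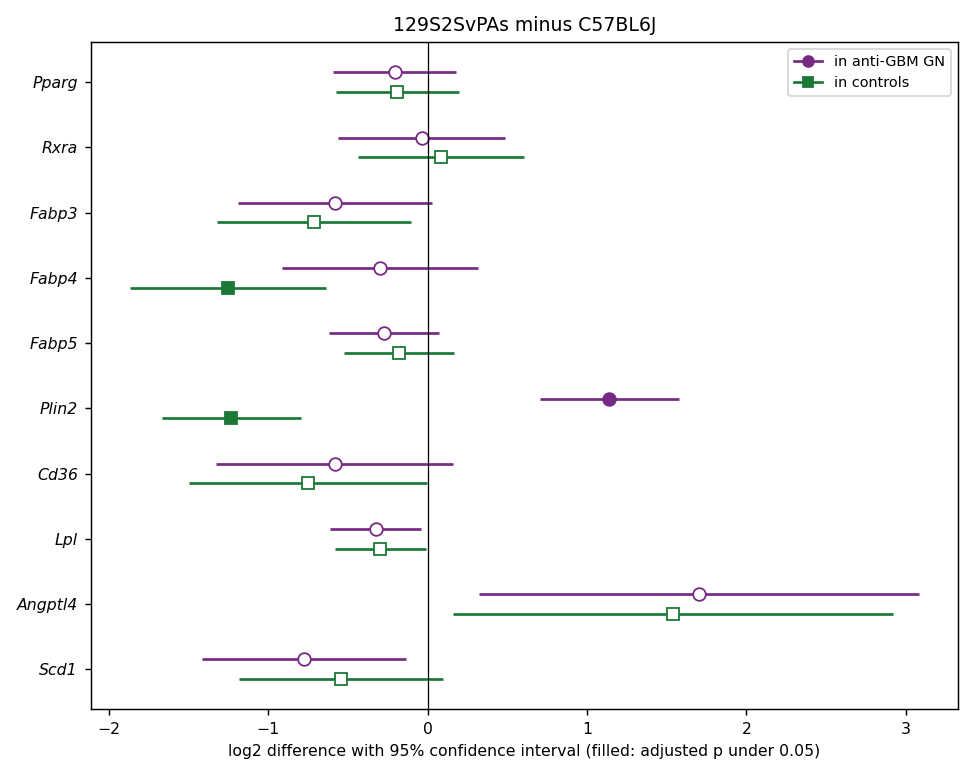
Log2 difference, 129S2SvPAs minus C57BL6J (x axis), of each gene in anti-GBM GN (purple circles) and in controls (green squares) with 95% confidence intervals, filled where the adjusted p is under 0.05. Plin2 stands at 1.14 in anti-GBM GN and -1.23 in controls, and Fabp4 is called in controls at -1.25.

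Counted over the 10 genes, 3 rose in 129S2SvPAs (Fabp4, Fabp5 and Plin2), where 10.6% of all genes tested were called higher, and 0 of the 10 fell in limma, against 9.77%. In C57BL6J 2 rose (Fabp4 and Fabp5) against 4.78% of all genes, and 0 fell against 2.31%. At an unadjusted p under 0.05, 2 genes were lower in each strain, Fabp3 and Lpl. Without 129S2SvPAs anti-GBM GN replicate 1, 3 rose and 2 fell in 129S2SvPAs, the falls being Fabp3 and Lpl. The share of all genes called in that fit is not given here. On average over the strains 3 rose and 2 fell, against 13.0% higher and 13.6% lower of all genes. Between strains in anti-GBM GN, 1 was higher in 129S2SvPAs (Plin2, against 3.49% of all genes) and 0 were lower (against 4.89%). At an unadjusted p under 0.05 in limma, 2 were higher and 2 lower there. Between strains in controls, 2 were lower in 129S2SvPAs (Fabp4 and Plin2, against 5.11% of all genes) and 0 were higher (against 3.32%). At an unadjusted p under 0.05, 5 were lower and 1 higher in controls. Of the 10 strain differences 8 were negative in anti-GBM GN and 8 in controls. The shares of all genes at an unadjusted p are not given here. The median of the 10 differences was 0.04 in 129S2SvPAs and 0.09 in C57BL6J, beside 0.00 and -0.03 over all genes tested. Of the 10 values 5 were positive in 129S2SvPAs and 6 in C57BL6J. Arrays of challenged and control mice did not overlap for 4 of the 10 genes in each strain, against 32.5% of all genes in 129S2SvPAs and 29.1% in C57BL6J. Arrays of the strains did not overlap for 4 of the 10 genes in anti-GBM GN and 5 in controls, against 27.9% and 31.6% of all genes.

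Over the 12 arrays, which share strain and treatment groups, Fabp4 followed Fabp5 with Pearson's r = 0.962, and 0.683 after each group's mean was removed. Fabp4 and Plin2 had r = 0.732, and 0.142 after removal of the group means. Fabp3 and Lpl had r = 0.871, and 0.446 after removal. These values are descriptions of 12 arrays in 4 groups.

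Outside the 10 genes, the patterns closest to Fabp4 over the 12 arrays were those of Tuba1a (an alpha tubulin, r = 0.99), Sparc (a matricellular protein, r = 0.985), Atp8b2 (r = 0.984), Ramp3 (an accessory protein of the adrenomedullin receptor, r = 0.982) and Anxa2 (annexin A2, r = 0.982). Closest to Plin2 were Dcaf13 (r = 0.941), Spns2 (a sphingosine 1-phosphate transporter, r = 0.93), Thoc5 (r = 0.929), Lgals1 (galectin 1, r = 0.918) and Ncbp1 (r = 0.915). For Pparg, whose values lie at the floor, they were Col3a1 (r = 0.848), Mtr (r = 0.836), Lepr (r = 0.81), H2az1 (r = 0.779) and Orc6 (r = 0.774). With group means removed, the r to Plin2 was -0.042 for Dcaf13 and 0.692 for Lgals1, and the r to Fabp4 was 0.774 for Tuba1a and 0.87 for Atp8b2.

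Marker lists of the other cell types in a glomerular preparation also differed between groups. Endothelial markers (11 genes) averaged 8.55 to 8.84 in 129S2SvPAs anti-GBM GN against 7.25 to 8.57 in its controls, and 8.85 to 9.47 in C57BL6J anti-GBM GN against 8.63 to 9.38 in its controls. In 129S2SvPAs 5 of the 11 rose and 1 fell, against 10.6% and 9.77% of all genes. In C57BL6J 1 rose and 1 fell, against 4.78% and 2.31%. The endothelial list, Fabp4 and Plin2 were all lowest in 129S2SvPAs controls. In controls 3 of 11 endothelial and 8 of 8 podocyte markers were called lower in 129S2SvPAs than in C57BL6J. The strain differences of Fabp4 and Plin2 there were -1.25 and -1.23. Of the mesangial markers 2 of 7 were also called lower, while 3 of 13 proximal tubule markers were called higher. The shares of all genes were 5.11% lower and 3.32% higher. The podocyte median was -1.54. All 11 endothelial differences were negative, 10 of them at an unadjusted p under 0.05 in limma, with a median of -1.19. In bulk tissue fewer cells of a type cannot be told apart from less RNA per cell. Mesangial markers (7 genes) averaged 8.21 to 8.55 in 129S2SvPAs anti-GBM GN against 6.61 to 6.89 in its controls, and 8.38 to 8.76 in C57BL6J anti-GBM GN against 6.82 to 7.37 in its controls, with no overlap in either strain. Called higher were 4 of the 7 in 129S2SvPAs and 3 in C57BL6J, against 10.6% and 4.78% of all genes. None were called lower, against 9.77% and 2.31%. Single responses were uneven, from -0.15 to 5.70 in 129S2SvPAs (median 0.98) and from 0.17 to 5.29 in C57BL6J (median 0.76). The largest in each strain was that of the contractile gene Tagln. Macrophage markers (9 tested of 13 listed) averaged 5.02 to 5.10 in 129S2SvPAs anti-GBM GN against 4.24 to 4.97 in its controls, and 4.99 to 5.64 in C57BL6J anti-GBM GN against 4.58 to 5.06 in its controls. The median response of these 9 genes was 0.04 in 129S2SvPAs, with 5 positive and 4 negative values. The largest there was that of Cd14, at 4.16. In C57BL6J the median was 0.41, with 7 positive and 2 negative values.

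Of the macrophage list 1 gene was called in each strain, Cd14, and Itgam and C1qc were at or below the table median on all arrays. The part of podocyte, endothelial, mesangial, macrophage and tubule content in the rises of Fabp4, Fabp5 and Plin2 was not tested. Nor was its part in the strain differences of Fabp4 and Plin2 tested. Of 10 adipocyte markers 7 were named on the array and 2 were tested, Car3 and Lipe. Their mean signals were 3.29 to 3.90 in 129S2SvPAs anti-GBM GN against 4.31 to 4.63 in its controls, and 5.38 to 6.01 in C57BL6J anti-GBM GN against 5.51 to 5.84 in its controls. Lipe lay near the floor, at 2.61 to 3.58 on all arrays. Car3 was called at -1.69 in 129S2SvPAs, and between strains at -4.23 in anti-GBM GN and -2.79 in controls. The defining adipocyte genes were at the floor. Adipoq spanned 2.17 to 2.22, Lep 2.53 to 2.57 and Retn 1.95 to 2.00 on all 12 arrays, and Plin4 and Cidec were also at or below the table median throughout.

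**Figure D4:**
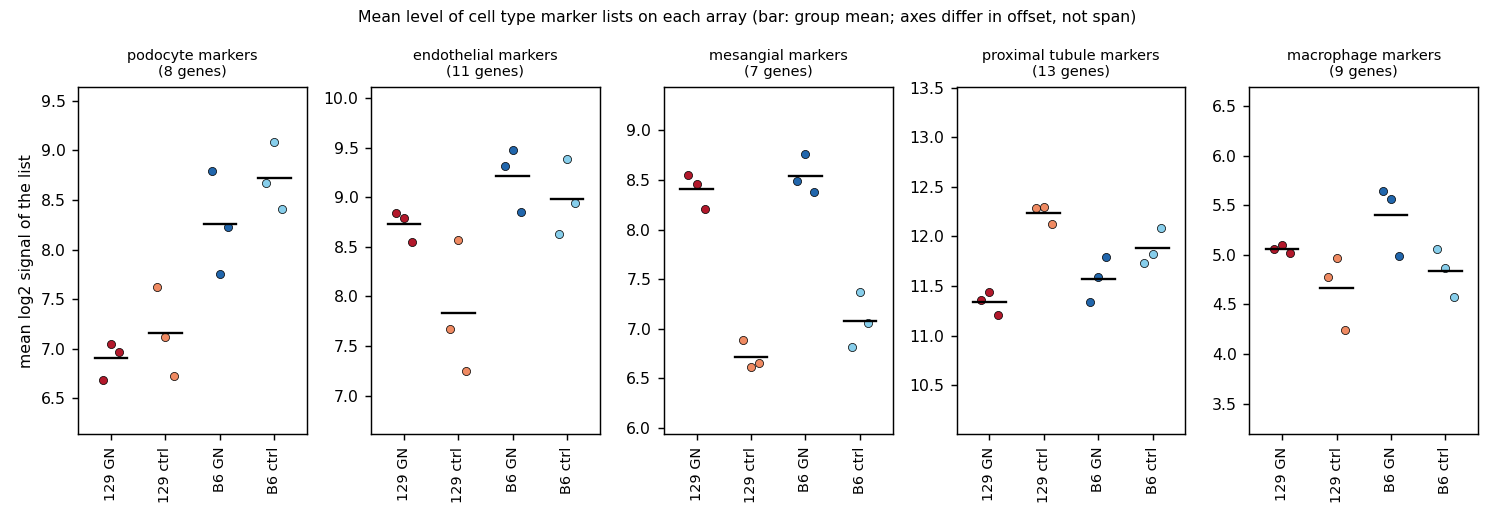
Mean log2 signal of the tested genes of 5 marker lists (y axis) on each array by group (x axis, labels as in the plot of the 10 genes), with points for mice and bars for group means. The mesangial mean is higher in anti-GBM GN of both strains. Endothelial and podocyte lists are lower in 129S2SvPAs controls than in C57BL6J controls. Proximal tubule markers are lower in 129S2SvPAs anti-GBM GN than in its controls.

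Other genes of lipid handling were read from 4 further lists, given as counts beside the share of all genes above (10.6% higher and 9.77% lower in 129S2SvPAs, 4.78% higher and 2.31% lower in C57BL6J). Among PPAR partners and coregulators (15 tested of 18 listed), 1 rose and 2 fell in 129S2SvPAs and 1 rose in C57BL6J. The adipogenic factor Cebpd rose by 1.96 in 129S2SvPAs (SE 0.35), while the related factor Cebpa fell by 1.79 (SE 0.35) and the coactivator Ppargc1a, known for mitochondrial biogenesis, fell by 1.08 (SE 0.12). In C57BL6J the gene that rose was Ppard, the PPARδ receptor, by 0.57 (SE 0.15, adjusted p = 0.0478). Ppargc1a was the 1 gene of these 4 lists whose responses differed by test, at -0.91 (SE 0.17, adjusted p = 0.0479). Between strains in anti-GBM GN, 129S2SvPAs had more Cebpd by 1.51 (SE 0.35) and less Ppargc1a, at -0.70 (SE 0.12). When replicate 1 of 129S2SvPAs anti-GBM GN was left out, Cebpd was no longer called between strains (1.29, adjusted p = 0.0649 in limma), Cebpa was (-1.46, adjusted p = 0.019), and 3 genes of the list fell in 129S2SvPAs.

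Of the uptake genes (14 tested of 23 listed) 2 rose in 129S2SvPAs and 1 in C57BL6J. Gpihbp1, which anchors lipoprotein lipase on capillary endothelium, rose by 2.17 in 129S2SvPAs (SE 0.32, adjusted p = 0.000956), with signals of 8.73, 8.86 and 8.83 in anti-GBM GN against 6.74, 7.05 and 6.12 in controls. The C57BL6J levels overlap, at 9.74, 9.52 and 8.61 in anti-GBM GN against 8.77, 8.94 and 8.11 in controls. Between strains in controls Gpihbp1 was at -1.97 (SE 0.32, adjusted p = 0.00347), lower in 129S2SvPAs, where the endothelial list was also lowest. Acsl5, an acyl-CoA synthetase that activates fatty acids, rose by 1.28 in 129S2SvPAs (SE 0.15) and by 0.60 in C57BL6J (SE 0.15), and in controls it was at -0.72 (129S2SvPAs minus C57BL6J, SE 0.15). Lrp1, a lipoprotein receptor of the LDL receptor family, was called on the average of both strains, at 0.75 (SE 0.18), and in neither strain by itself. On that average 3 genes of the list rose and 2 fell, against 13.0% higher and 13.6% lower of all genes. Without 129S2SvPAs anti-GBM GN replicate 1, 2 uptake genes rose and 3 fell in 129S2SvPAs.

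Among the other genes of droplet storage and lipolysis (18 tested of 23 listed), 3 fell in 129S2SvPAs, and 0 rose in limma (1 at an unadjusted p under 0.05). They were Fitm1, which promotes droplet formation (-1.13, SE 0.18), Gpam, the first acyltransferase of triglyceride synthesis (-0.79, SE 0.19), and Cideb (-0.59, SE 0.14), and 5 fell without 129S2SvPAs anti-GBM GN replicate 1. In C57BL6J 1 gene of the list was called, Fitm1, also at -1.13 (SE 0.18). Gpam was higher in 129S2SvPAs controls than in C57BL6J controls by 0.73 (SE 0.19). The median of the list was -0.28 in 129S2SvPAs and -0.20 in C57BL6J, beside 0.00 and -0.03 over all genes tested. The median in 129S2SvPAs was -0.51 without 129S2SvPAs anti-GBM GN replicate 1. Beside these values, 7 of the 13 proximal tubule markers fell and 1 rose in 129S2SvPAs, against 9.77% and 10.6% of all genes. For C57BL6J 2 fell and 0 rose, against 2.31% and 4.78%. The part of tubule content in the result was not tested.

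Fatty acid synthesis and desaturation genes (17 tested of 19 listed) had 3 falls in 129S2SvPAs, the elongase Elovl6 (-0.77, SE 0.18), the desaturase Fads2 (-0.75, SE 0.21) and Insig1, a sterol-regulated brake on lipid synthesis (-0.78, SE 0.22). Without 129S2SvPAs anti-GBM GN replicate 1, 4 genes fell in 129S2SvPAs and 5 on average, and Insig1 was not among those called in 129S2SvPAs (-0.76, adjusted p = 0.0636 in limma). Thrsp, a lipogenic factor of liver and fat, was called on the average, at -2.18 (SE 0.64), and in neither strain by itself. Its signals were near the floor in 129S2SvPAs anti-GBM GN, at 2.83, 3.02 and 2.84, against 3.04, 6.74 and 7.31 in its controls. In C57BL6J they were 4.80, 3.78 and 2.82 in anti-GBM GN against 5.08, 5.84 and 5.18 in controls. In C57BL6J 0 of the 17 were called in limma, and at an unadjusted p under 0.05 the count was also 0. Between strains Me1, the malic enzyme that supplies NADPH and a known NRF2 target, was higher in 129S2SvPAs by 1.05 in anti-GBM GN (SE 0.18) and by 1.01 in controls (SE 0.18), and Scd2 was lower in 129S2SvPAs controls, at -0.95 (SE 0.23).

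**Figure D5:**
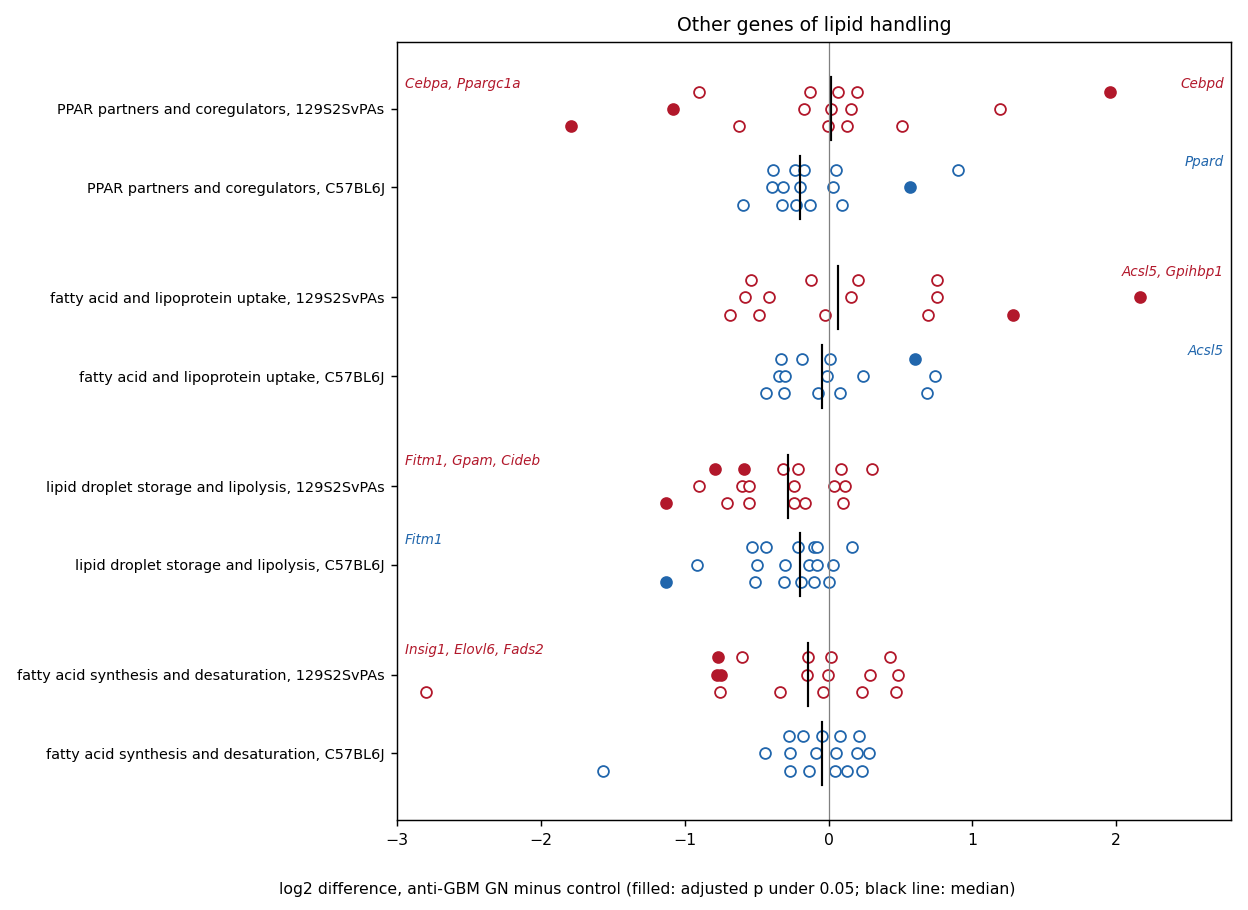
Log2 difference, anti-GBM GN minus control (x axis), of each tested gene of the 4 further lists in 129S2SvPAs (red) and C57BL6J (blue), filled and named at the side where the adjusted p is under 0.05, with a black line at the median. The storage list has medians of -0.28 and -0.20, and Gpihbp1 stands at 2.17 in 129S2SvPAs.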

How the data were processed

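RNA of sieved glomeruli was hybridised to Affymetrix arrays, 1 per mouse, per the labels' protocols. The authors deposited log2 signals for 45037 probe sets, from 1.12 to 15.02, with array medians of 2.99 to 3.06. The submitters' processing notes name MAS5 with GCRMA and do not say which of them gave these numbers; that they are log2 was judged from their range. Scan dates are not given in the sources used here, so no batch could be tested.

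The platform annotation gave 34945 probe sets 1 symbol, 932 several and 9160 none. For a gene with several probe sets, the brightest on average stood for it. A gene was tested if this probe set passed 3.03, the median of all values, on 3 or more arrays. The 4 group means were estimated together in limma 3.58.1 (R 4.3.3), with empirical Bayes moderation (10.7 total degrees of freedom) and Benjamini-Hochberg adjustment within each of 6 contrasts. The fit was tested on simulated data. Marker levels are means of log2 signals over a list's tested genes.

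The 10 genes and the lists were chosen with earlier results of these data known. Named besides the 10 genes were up to 3 called genes per list and contrast with the lowest p, and the 5 genes closest to Pparg, Fabp4 and Plin2; marker genes are named where a result touches them. Alternatives were 2 normalizations, 2 filters, other probe sets, another prior, array weights, only the groups compared, a replicate block, a fold threshold and leaving out each array. The counts and calls of the further lists without 129S2SvPAs anti-GBM GN replicate 1 were added after seeing the data. Figures used Python 3.11.15 with matplotlib 3.10.9.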

Additional observations from a re-analysis of the deposited data

Results flagged for a closer look

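Plin2 is listed here because its responses in the 2 strains differed by limma's test of the difference itself, 2.37 on the log2 scale (129S2SvPAs minus C57BL6J, adjusted p = 0.00586), as described above. The value came from 129S2SvPAs on both sides, with 129S2SvPAs anti-GBM GN above and 129S2SvPAs controls below the C57BL6J arrays.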

How the results depend on the processing

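Of the values of the 10 genes that were called, 293 kept call and direction under an alternative and 4 lost the call, and of those not called 895 stayed so, 22 gained a call and 62 changed sign. The 4 losses were Fabp4 in controls without 129S2SvPAs control replicate 1 or C57BL6J control replicate 2, the Lpl average with quantile normalization, and the Fabp3 average from its dimmer probe set (-0.03, adjusted p = 0.829 in limma). With array weights 5 genes were called in 129S2SvPAs (3 higher, 2 lower) and 5 between strains in anti-GBM GN (2 higher, 3 lower), and replicate 1 of 129S2SvPAs anti-GBM GN had a weight of 0.207. With a log2 change of at least 1 required as well, 3 were called on average. The causes were not tested, and the share of all genes called is not given for the alternatives. Leaving out 1 array at a time gave 3 to 5 calls in 129S2SvPAs (5 without 129S2SvPAs anti-GBM GN replicate 1), 2 to 3 in C57BL6J, 5 to 6 on average, 1 for the difference of responses, 1 to 2 between strains in anti-GBM GN and 1 to 2 in controls (1 without C57BL6J control replicate 2). The 2 calls in anti-GBM GN came without 129S2SvPAs anti-GBM GN replicate 1 or 129S2SvPAs control replicate 1. Same-numbered arrays deviated together in C57BL6J (r of 0.208 to 0.33 over genes) and across the controls (0.239 to 0.284), but not in 129S2SvPAs (-0.157 to 0.183) or across anti-GBM GN (-0.38 to 0.121), and 7 of the 12 pairs correlated best with their own number. The labels give the numbers no meaning, so they were not used as pairs, and a fit with the replicate block changed no call or count of the 10 genes (Plin2 difference of responses 2.37, adjusted p = 0.0209).

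Every value that changed sign was uncalled in the main analysis. From another probe set the values were -0.0733 in C57BL6J, -0.235 on average and 0.23 between strains in anti-GBM GN for Rxra, 0.0033 in C57BL6J, -0.06 for the difference of responses, 0.0367 in anti-GBM GN and 0.10 in controls for Fabp3, 0.03 for the difference of responses of Fabp5, 0.0033 in 129S2SvPAs and -0.0467 for the difference for Cd36, and 0.10 for the difference for Lpl. The mean of all probe sets gave -0.0661 on average and 0.0767 in anti-GBM GN for Rxra and 0.0367 for the difference for Lpl. Array weights gave -0.0866 on average for Rxra, -0.14 for the difference for Fabp3, and 0.15 in 129S2SvPAs and 0.16 on average for Scd1. The difference for Pparg was 0.0 with arrays shifted to one median and 0.0065 with quantile normalization.

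Leaving out 1 array at a time, signs changed within these ranges. Pparg ran from -0.075 to 0.2 in 129S2SvPAs, -0.025 to 0.245 in C57BL6J and -0.19 to 0.12 for the difference of responses. Rxra ran from -0.325 to 0.2 in 129S2SvPAs, -0.12 to 0.15 on average, -0.42 to 0.11 for the difference, -0.335 to 0.19 between strains in anti-GBM GN and -0.0217 to 0.21 in controls. Angptl4 ran from -0.44 to 0.83 in 129S2SvPAs, -0.265 to 0.51 in C57BL6J, -0.135 to 0.5 on average and -0.61 to 0.66 for the difference. Scd1 ran from -0.41 to 0.25 in 129S2SvPAs, -0.16 to 0.17 on average and -0.50 to 0.16 for the difference. The difference ran from -0.18 to 0.42 for Fabp3, -0.24 to 0.0133 for Fabp5, -0.205 to 0.515 for Cd36 and -0.12 to 0.06 for Lpl.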
